A study of Mus musculus with 10 samples.

Results

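Type I interferon response genes were followed in the transcriptome of Ly6Chigh monocytes from the mouse spleen. The 32 genes were taken by symbol from a list of classical interferon-induced genes, and all 32 were found among the 24421 gene symbols common to the 10 libraries. They also all passed the filter on low values, at least 1 TPM (a length-corrected share of the library) in at least 3 libraries, which left 12938 genes. The rule itself uses no expression value.

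The study asked how regulatory T cells (Tregs) shape splenic monocytes after myocardial infarction (MI). RNA was sequenced on day 5 after surgery from C57BL/6 wild-type (WT) mice with a sham operation (WT sham, n = 3, replicates 1, 2 and 3), C57BL/6 WT mice with MI (WT MI, n = 3, replicates 2, 3 and 4) and Foxp3DTR mice with MI (Foxp3DTR MI, n = 4, replicates 1 to 4). MI was made by tying the left anterior descending coronary artery for good, and a sham operation opened the chest without the ligature. All were male mice of 8 to 10 weeks and received buprenorphine. In Foxp3DTR mice the Foxp3 promoter drives a human receptor for diphtheria toxin. The toxin, 500 ng on days 2 and 1 ahead of the operation and 250 ng on day 2 after it, removes a part of the Foxp3+ cells in them. The study describes the WT mice that it set against Foxp3DTR mice as given toxin too. The toxin protocol is given with every library, WT sham included, and the study's methods name the last dose for MI and sham operations alike. Whether each WT MI or WT sham library came from a treated mouse is not stated. Monocytes were sorted as CD11b+ Ly6G- F4/80+ Ly6Chigh CD115+ cells after removal of T and B cells, and each library started from picogram amounts of RNA. The study counts its replicates as animals, although the labels do not tie a library to an animal, and p-values measure the spread between these samples.

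Type I interferons (IFN-α and IFN-β) bind the receptor chains IFNAR1 and IFNAR2 on nearly every cell. The kinases JAK1 and TYK2 then phosphorylate STAT proteins, STAT2 among them, which join IRF9 in the complex ISGF3 and bind the interferon-stimulated response element (ISRE) at genes that restrict viruses. IFN-γ, the type II interferon of T and NK cells, uses another receptor with JAK1 and JAK2 and acts mainly through the gamma-activated sequence (GAS), at genes such as the guanylate-binding proteins (GBPs) and the immunity-related GTPases (IRGs). Both classes overlap, since many genes respond to each interferon.

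The depth inferred from the tables was 3.13 to 8.40 M reads, lowest in WT sham replicate 2. It was derived from coverage and FPKM and is not the number of reads sequenced, for which the study's methods name a larger figure. Ly6c2, Ccr2 and Csf1r, markers of Ly6Chigh monocytes, were present in every library. Summed T cell markers (8 genes found) were 28.4 to 118 scaled TPM in Foxp3DTR MI, 7.19 to 8.35 in WT MI and 8.71, 21.8 and 145 in WT sham replicates 1, 2 and 3. Summed neutrophil markers (10 genes) were 1114 to 2749 in Foxp3DTR MI and 167 to 479 in WT MI, and WT sham replicate 3 stood at 1299. NK cell markers (7 genes) summed to 70.3 to 145 in Foxp3DTR MI and 28.0 to 65.2 in WT MI. Camp was listed at 0 in WT MI replicates 3 and 4, and Cd3e in WT MI replicate 4. Plasmacytoid dendritic cells, potent makers of type I interferon, had summed markers (8 genes) of 46.9 to 51.3 in Foxp3DTR MI, 43.9 to 53.5 in WT MI and 58.9 to 68.1 in WT sham, most of it from Tcf4 (30.9 to 51.0 in all libraries). The other 7 summed to 14.2 to 15.9 in Foxp3DTR MI, 3.71 to 9.16 in WT MI, where 3 were at 0 throughout, and 8.88 to 29.2 in WT sham, and 1 of them, Ly6d (2.90 to 7.36 in Foxp3DTR MI, listed at 0 in WT MI), passed the test (limma, adjusted p = 0.025). Conventional dendritic cell markers (6 genes) summed to 24.7 to 44.5 in Foxp3DTR MI, 61.4 to 84.3 in WT MI and 56.2 to 131 in WT sham, and without Flt3 to 16.9 to 30.1, 19.4 to 42.2 and 28.4 to 70.9. B and plasma cell markers (7 genes) summed to 36.3 to 113 in Foxp3DTR MI, 17.7 to 26.1 in WT MI and 20.8 to 241 in WT sham, and without Jchain to 8.15 to 20.8, 11.9 to 15.1 and 13.2 to 40.4. WT sham replicate 3, with the highest T cell sum of all libraries, had a median member level 0.12 log2 units below the members' own means. The GBP and IRG genes went the other way, and all but Gm5431 were highest in this library within WT sham. Gbp2 was 285 scaled TPM in it, against 62.5 and 39.9 in WT sham replicates 1 and 2. The part of the other cell types in the values below was not tested.

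Promoter sequence is shown first, because the response elements named above lie there. RefSeq promoters (GRCm38.p6, the build of mm10) were found for 23 of the 32 genes. In the 250 bases before the start site, on either strand, the ISRE core, GAAA and again GAAA with any 2 bases between, occurred in 10 of these 23 (43.5%), against 3.46% of 27025 promoters in all. The palindromic GAS letters, TTC and GAA with any 3 bases between, occurred in 4 of 23 (17.4%), against 8.13% of all promoters. The windows below run 5′ to 3′ in the direction of the gene and are marked with capitals where either motif, or its reverse complement, matched. Isg15, Ifit1, Rsad2 and the near copies Ifit3 and Ifit3b show ISRE letters only, at chr4:156200859-156200918 (minus strand), chr19:34640769-34640828 (plus), chr12:26456533-26456592 (minus), chr19:34583359-34583429 (plus) and chr19:34607755-34607825 (plus).
Isg15: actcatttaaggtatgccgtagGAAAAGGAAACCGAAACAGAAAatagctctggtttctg
Ifit1: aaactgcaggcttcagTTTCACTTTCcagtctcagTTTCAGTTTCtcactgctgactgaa
Rsad2: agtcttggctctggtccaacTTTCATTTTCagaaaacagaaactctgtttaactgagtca
Ifit3: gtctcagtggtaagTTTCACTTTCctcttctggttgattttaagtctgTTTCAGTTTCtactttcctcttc
Ifit3b: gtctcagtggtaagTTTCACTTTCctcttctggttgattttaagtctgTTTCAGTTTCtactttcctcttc

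Bst2 held both motifs, overlapping each other, at chr8:71537573-71537632 (minus). Of the members, Oas1a was the other with both (2 of 23, 8.70%, against 0.459% of all promoters).
Bst2: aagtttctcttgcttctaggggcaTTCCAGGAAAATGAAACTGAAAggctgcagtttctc

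The GBP and IRG genes are given for contrast, since both motifs often stood together there. Of the 13 with a promoter (of 22), 11 held the ISRE core (84.6%), 7 held GAS (53.8%) and 7 held both. Gbp2, Gbp2b, Gbp3 and Irgm1 held the ISRE core without GAS, so ISRE letters alone are not particular to the members. The 13 include no Gbp gene of chromosome 5, and not Iigp1, Gm4951 or F830016B08Rik, so these shares do not cover them. The windows of Igtp (chr11:58199486-58199545, plus), Tgtp2 (chr11:49064258-49064317, minus) and Gbp7 (chr3:142530216-142530305, plus) show the layout with both motifs. A letter match is a description and not a bound site.
Igtp: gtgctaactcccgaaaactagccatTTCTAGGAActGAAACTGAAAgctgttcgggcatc
Tgtp2: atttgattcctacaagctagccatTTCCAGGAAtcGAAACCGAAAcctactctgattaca
Gbp7: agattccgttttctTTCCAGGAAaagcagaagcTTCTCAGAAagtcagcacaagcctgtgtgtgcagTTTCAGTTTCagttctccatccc

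All 32 genes were detected in the sorted monocyte libraries of every group. TPM is corrected for gene length, so that levels may be compared between genes. After each library was divided by its median-of-ratios factor (scaled TPM), Ifi27l2a had the highest mean level over the 10 libraries (841 scaled TPM, percentile 99.3 of genes tested), followed by Zbp1 (403), Oasl2 (297), Irf7 (272) and Oas2 (243). Ifi44 was lowest (10.7, percentile 34.3), and the next, Oasl1, had 22.2 (percentile 50.8). The spread within groups was wide: for Mx1 the standard deviation was 15.0 around a mean of 104 in WT sham, 53.3 around 118 in WT MI and 8.67 around 104 in Foxp3DTR MI.

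**Figure D1:**
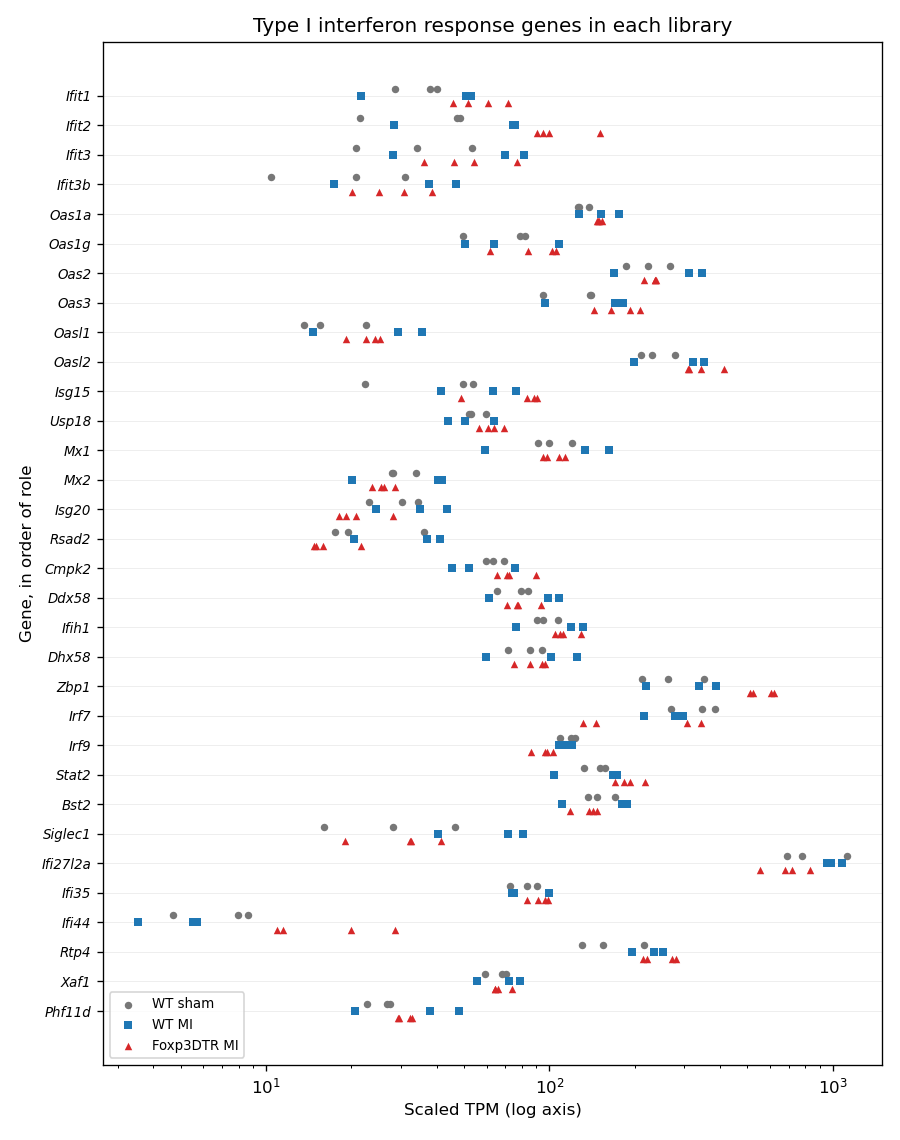
Level of each of the 32 genes in each library (x axis, scaled TPM on a log axis), with genes in order of role from top to bottom and 1 point per library. Zbp1, Ifit2 and Ifi44 are the genes whose 4 Foxp3DTR MI points all lie above all WT MI points, and for most other genes the 3 groups overlap.

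The comparison of Foxp3DTR MI with WT MI asks what Treg depletion changed in monocytes after infarction. The type I interferon response genes pointed both ways, without a common direction. No member passed an adjusted p of 0.05 (limma, Benjamini-Hochberg over 12938 genes), in either direction, against 1.12% of all genes tested (0.688% higher and 0.433% lower). At an unadjusted p under 0.05 there were 10 of 32, 5 higher and 5 lower, against 17.7% of all genes (9.31% higher, 8.42% lower). The median log2 fold change of the members was -0.04, with 14 positive and 18 negative, beside 0.00 for all genes tested, and the size of the change had a median of 0.26 beside 0.21. For 22 of the 32 the 95% interval lay within a 2-fold change either way, so that for the other 10 a 2-fold change remained within reach of the error. Groups did not overlap for 3 members in the higher and 2 in the lower direction, against 19.0% of all genes (9.97% higher, 9.02% lower).

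The tetratricopeptide proteins of the Ifit family bind viral RNA and lie side by side on chromosome 19 (mm10), Ifit2 at 34550694-34576534, Ifit3 at 34583529-34588982, Ifit3b at 34607957-34613401 and Ifit1 at 34640889-34650009. Ifit2 measured 95.1, 90.2, 151 and 99.9 scaled TPM in Foxp3DTR MI, 28.3, 75.5 and 74.4 in WT MI and 48.5, 21.5 and 47.2 in WT sham. Every Foxp3DTR MI library stood above every WT library, although WT MI replicate 2 was far below its group. The log2 fold change against WT MI was 0.96 ± 0.38 (SE, adjusted p = 0.22). Ifit1 was 0.53 ± 0.29 (adjusted p = 0.36) and Ifit3 -0.08 ± 0.40 (adjusted p = 0.93), the sign of the latter turning with TPM left unscaled (0.16). Ifit3 and Ifit3b are near copies that may share reads, and are uncertain singly. All 71 bases of their promoter windows above, taken at different distances from the start sites, were identical, but transcript sequence was not compared.

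Ratios within a library cancel any scaling between libraries, and those of neighbouring Ifit genes were looked at after their values had been seen, as a description with no test. The ratio of Ifit2 to Ifit3 was 2.07, 2.49, 1.96 and 1.85 in Foxp3DTR MI, 1.01, 0.926 and 1.06 in WT MI, and 0.913, 1.04 and 1.39 in WT sham. Thus WT MI replicate 2, although low for both genes, had the ratio of its group, and the Foxp3DTR MI libraries stood apart from all others. The ratio of Ifit1 to Ifit3 was 0.928 to 1.43 in Foxp3DTR MI and 0.647 to 0.767 in WT MI, but WT sham spanned 0.752 to 1.38. Ifit3b to Ifit3, the near copies, gave 0.499 to 0.615 over all 10 libraries. Ifit3, uncertain singly, is the denominator of all these ratios.

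**Figure D2:**
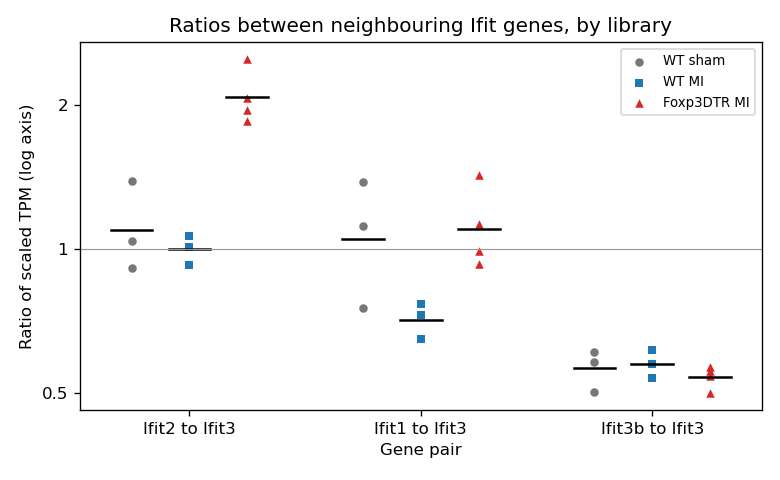
Ratio of scaled TPM between genes of the Ifit cluster in each library (y axis, log axis), for 3 gene pairs on the x axis, with 1 point per library and a bar at the geometric mean of each group. The 4 Foxp3DTR MI libraries lie between 1.85 and 2.49 for Ifit2 to Ifit3, all above the 6 WT libraries, whose highest value is 1.39.

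The oligoadenylate synthetases make the messenger that activates RNase L. Their 4 Oas genes and 2 Oas-like genes form 2 groups on chromosome 5. Oasl2, the most abundant, measured 309, 311, 413 and 344 scaled TPM in Foxp3DTR MI, 199.6, 323 and 352 in WT MI and 278, 211 and 231 in WT sham. WT MI replicate 2 was the lowest of all 10 libraries, and the groups overlapped (log2 fold change 0.27 ± 0.20, adjusted p = 0.50). For all 6 genes the 95% interval lay within a 2-fold change, and their log2 fold changes ran from -0.19 to 0.29, with 3 positive and 3 negative.

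ISG15 is a ubiquitin-like protein that is joined to other proteins, and USP18 removes it and also blocks the type I receptor. Isg15 measured 48.7, 88.0, 83.2 and 90.2 scaled TPM in Foxp3DTR MI, 41.4, 76.3 and 63.3 in WT MI and 49.5, 22.4 and 53.7 in WT sham. Foxp3DTR MI replicate 1 was the low library of its group, within the WT range, and the others were above it. The log2 fold change was 0.36 ± 0.33 (adjusted p = 0.60). Usp18 measured 60.5, 64.0, 69.3 and 56.3 in Foxp3DTR MI, 43.9, 63.8 and 50.5 in WT MI and 52.9, 59.9 and 51.9 in WT sham, with overlapping groups and a log2 fold change of 0.25 ± 0.13 (adjusted p = 0.34).

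The Mx GTPases trap viral nucleocapsids. Mx1 measured 98.2, 108, 114 and 94.9 scaled TPM in Foxp3DTR MI, 59.3, 163 and 133 in WT MI and 91.2, 99.4 and 120.3 in WT sham. The Foxp3DTR MI libraries lay between the low and the high WT MI libraries, and the log2 fold change was -0.07 ± 0.28 (adjusted p = 0.92). Mx2 measured 23.6, 28.5, 26.1 and 25.4 in Foxp3DTR MI, 20.1, 41.8 and 40.3 in WT MI and 33.8, 27.8 and 27.9 in WT sham, the same arrangement, with a log2 fold change of -0.32 ± 0.22 (adjusted p = 0.49).

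Among enzymes that act on nucleotides and RNA, members pointed in different directions. Rsad2 encodes viperin, which makes a chain-terminating nucleotide. It measured 15.8, 14.7, 21.6 and 15.0 scaled TPM in Foxp3DTR MI, 20.4, 41.2 and 37.1 in WT MI and 36.0, 17.5 and 19.5 in WT sham. The Foxp3DTR MI libraries were low, although replicate 3 reached above WT MI replicate 2, and the log2 fold change was -0.89 ± 0.29 (adjusted p = 0.16). Cmpk2, a nucleotide kinase whose gene lies next to Rsad2 on chromosome 12, measured 65.6, 72.2, 89.6 and 70.8 in Foxp3DTR MI, 45.2, 75.4 and 52.2 in WT MI and 63.1, 59.7 and 69.3 in WT sham. Its log2 fold change had the opposite sign, 0.39 ± 0.17 (adjusted p = 0.26), with overlapping groups. The RNA exonuclease gene Isg20 stood at -0.63 ± 0.22 (adjusted p = 0.18).

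Among sensors of foreign nucleic acid, Zbp1, which senses Z-form nucleic acid and can start necroptosis, stood apart from the RIG-I-like receptors. Zbp1 measured 512, 524, 622 and 606 scaled TPM in Foxp3DTR MI, 219.7, 387 and 336 in WT MI and 262, 213 and 352 in WT sham. The lowest Foxp3DTR MI library was above the highest WT library, and the means were 566 ± 56.1 (SD, n = 4) and 314 ± 85.5 (SD, n = 3) in the MI groups. The log2 fold change was 0.88 ± 0.21, just short of the threshold (limma, adjusted p = 0.072). Over the alternative settings its adjusted p ran from 0.025 to 0.16. It passed with unscaled TPM, with only the 2 groups in the fit, with array weights, with the replicate number as a block, and without WT sham replicate 2 or 3, while no removal of an MI library brought it past. Ddx58, Ifih1 and Dhx58, the genes of RIG-I, MDA5 and LGP2, had log2 fold changes of -0.13 ± 0.19, 0.09 ± 0.17 and -0.06 ± 0.22, and each interval lay within a 2-fold change.

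Stat2 and Irf9, which encode parts of ISGF3, had log2 fold changes of opposite sign. Neither passed the test, and the difference between them was not tested. Stat2 measured 171, 184, 218 and 193 scaled TPM in Foxp3DTR MI, 104, 168 and 173 in WT MI and 132, 157 and 151 in WT sham. Foxp3DTR MI was high, with an overlap of its lowest library and WT MI replicate 4, and the log2 fold change was 0.40 ± 0.17 (adjusted p = 0.26). Irf9 measured 86.0, 96.8, 103 and 97.7 in Foxp3DTR MI, 108, 120.3 and 112 in WT MI and 124, 119 and 109 in WT sham. All Foxp3DTR MI libraries were below all WT libraries, by a small amount that did not pass the test (log2 fold change -0.24 ± 0.09, adjusted p = 0.21). Irf7, the factor that amplifies IFN-α genes, measured 146, 132, 307 and 344 in Foxp3DTR MI, 297, 215 and 279 in WT MI and 346, 384 and 268 in WT sham. The Foxp3DTR MI libraries formed a low pair and a high pair on either side of WT MI (log2 fold change -0.30 ± 0.32, adjusted p = 0.67).

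Of the surface proteins, Bst2 (tetherin, which holds budding virus) measured 118, 147, 138 and 142 scaled TPM in Foxp3DTR MI, 111, 189 and 181 in WT MI and 169.9, 137 and 147 in WT sham. The groups overlapped, and the log2 fold change was -0.20 ± 0.18 (adjusted p = 0.59). Siglec1, the sialic acid receptor CD169, measured 32.2, 19.0, 32.5 and 41.5 in Foxp3DTR MI, 40.4, 80.9 and 71.2 in WT MI and 46.3, 16.1 and 28.0 in WT sham. WT MI replicates 3 and 4 were above all other libraries, and replicate 2 lay within the range of the others. The log2 fold change was -1.0 ± 0.36 (adjusted p = 0.19). Siglec1 also marks resident splenic macrophages. Their markers Timd4 and Marco were listed at or near 0 in every library (at most 0.958 and 2.08). Spic was 14.5, 5.14, 5.44 and 8.17 in Foxp3DTR MI and 31.3, 22.2 and 15.6 in WT MI. Vcam1, Cd5l and Slc40a1 did not share this fall, with overlapping groups and log2 fold changes of 0.02, 0.19 and 0.12. The part of such cells was not tested. The 7 macrophage markers summed to 127 to 169 in Foxp3DTR MI, 168 to 203 in WT MI and 164 to 218 in WT sham, most of it from Adgre1, which encodes F4/80, a marker of the sort. Without Adgre1 the other 6 summed to 9.92 to 29.7, 25.04 to 36.7 and 31.9 to 78.4, and in WT MI most of this was Spic. In a sorted bulk sample, fewer cells of a type and less RNA per cell cannot be told apart.

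Of the other induced genes, Ifi44 had the largest log2 fold change of all 32. It measured 19.9, 28.6, 10.9 and 11.4 scaled TPM in Foxp3DTR MI, 3.54, 5.51 and 5.72 in WT MI and 4.68, 7.93 and 8.62 in WT sham. All Foxp3DTR MI libraries stood above all WT libraries, and replicates 1 and 2, low in Irf7, were the high ones here. The log2 fold change was 1.58 ± 0.33 (limma, adjusted p = 0.052, range over the alternatives 0.028 to 0.13). It passed with unscaled TPM, quantile normalization, only the 2 groups in the fit, array weights, and without WT sham replicate 2 or 3. Ifi27l2a, which encodes a small membrane protein, measured 717, 681, 556 and 834 in Foxp3DTR MI, 989, 955 and 1083 in WT MI and 689, 1121 and 780.1 in WT sham. Foxp3DTR MI was below WT MI without overlap but not below WT sham, and the log2 fold change was -0.55 ± 0.19 (adjusted p = 0.17). Its interval in the tables spans Ifi27 on the other strand, so that reads may be shared. Ifi35, Rtp4, Xaf1 and Phf11d ran from -0.12 to 0.17, each within a 2-fold interval. In the annotation Usp18, Dhx58, Oas2, Oasl1 and Ifi35 overlap other genes, and their reads may also be shared.

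Members with the ISRE core had a median log2 fold change of 0.14 and those without it -0.02, and members with GAS had -0.10 against 0.09 without. Bst2, with both motifs, was at -0.20 and Oas1a, also with both, at -0.01. Ifit2, whose window held GAS but not the ISRE core, was at 0.96, and Isg20 with the same was at -0.63.

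The GBP and IRG genes, which respond to IFN-γ as well as to type I interferon, were given the same fit. Of 22, 17 rose in Foxp3DTR MI against WT MI and none fell, all 22 log2 fold changes were positive, and the median was 2.51, beside -0.04 for the 32 members. The difference between these sets was not tested. On chromosome 3, 4 of 5 Gbp genes rose (median 2.49), on chromosome 5 all 6 (median 3.07), and of the IRG genes 7 of 11 (median 1.58). Gbp9 measured 148, 147, 179 and 128 scaled TPM in Foxp3DTR MI against 48.5, 59.7 and 50.0 in WT MI and 51.3, 49.4 and 72.5 in WT sham (log2 fold change 1.49 ± 0.16, adjusted p = 0.015). Gbp7 measured 223, 247, 279.8 and 221 against 43.7, 81.5 and 63.05 in WT MI and 52.3, 47.02 and 133 in WT sham (1.97 ± 0.32, adjusted p = 0.029). Gm4951 measured 56.5, 68.9, 49.7 and 21.9 against 0.319, 1.03 and 0.632 in WT MI, and 0, 1.09 and 7.59 in WT sham (4.83 ± 0.63, adjusted p = 0.015). These 3 had the lowest p of their families, and in each the Foxp3DTR MI libraries were above all others. Gbp2b, Gbp5 and Gbp2 followed on chromosome 3 (log2 fold changes of 2.49, 2.52 and 3.00), Gbp4, Gbp11 and Gbp8 on chromosome 5 (3.63, 2.44 and 2.90), and F830016B08Rik, Iigp1 and Tgtp1 among the IRG genes (3.41, 5.14 and 2.86). Of the other genes whose windows are shown above, Tgtp2 stood at 2.81 ± 0.48 (adjusted p = 0.033) and Igtp at 1.47 ± 0.29 (adjusted p = 0.049). Near copies such as Tgtp1 and Tgtp2 are uncertain singly. The calls rested on each MI library, while the signs did not. The number called was 0, 2 and 3 without WT MI replicates 2, 3 and 4, and 3, 3, 1 and 6 without Foxp3DTR MI replicates 1, 2, 3 and 4, but all 22 stayed positive in each, with medians of 2.34 to 2.81. Calls over all genes fell too, from 1.12% to 0%, 0.0856% and 0.287%, and to 0.156%, 0.148%, 0.0156% and 0.334%, in the same order. The number of these 22 called was also 3 with no filter on low values (0.117% of all genes) and 10 with no variance trend (0.572%). The T cell, NK cell, neutrophil, conventional dendritic cell, and B and plasma cell marker sums given above also differed between Foxp3DTR MI and WT MI without overlap. The conventional dendritic cell sum overlapped once Flt3 was left out, and the B and plasma cell sum once Jchain was. The plasmacytoid dendritic cell sum overlapped, but not without Tcf4. The part of all these cells was not tested.

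**Figure D3:**
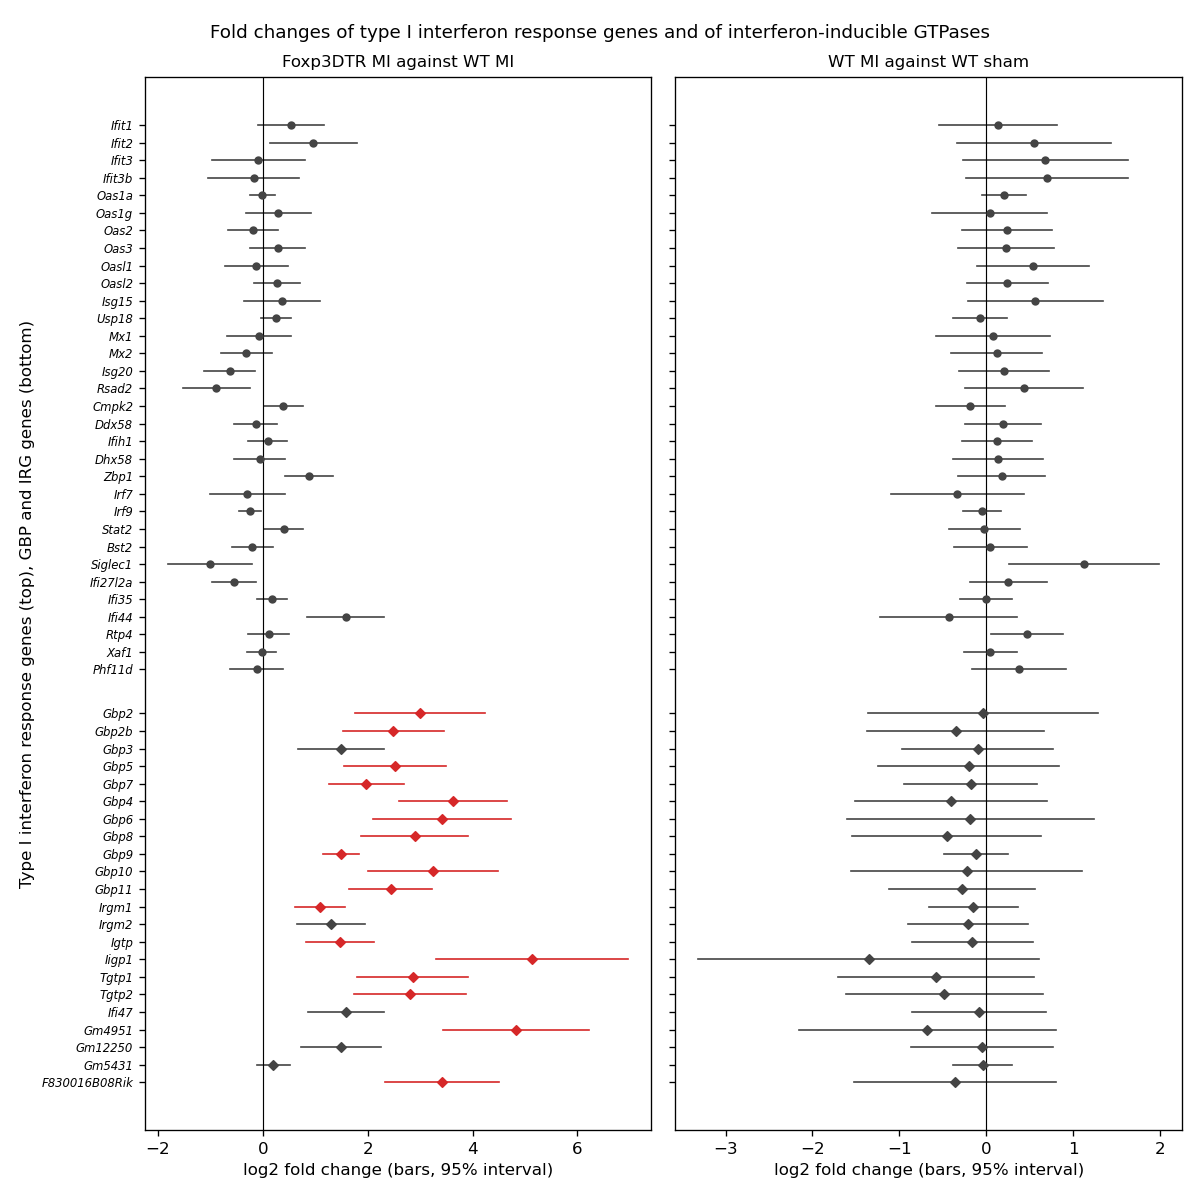
Log2 fold changes with 95% intervals (x axes) of the 32 type I interferon response genes (circles, top) and of the 22 GBP and IRG genes (diamonds, bottom), for Foxp3DTR MI against WT MI (left) and WT MI against WT sham (right), with red for an adjusted p under 0.05. On the left the circles have a median of -0.04 and the diamonds a median of 2.51, and on the right nothing is red.

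Other genes of the type I pathway were read in the same fit. Almost no ligand was seen. Of 18 type I interferon genes only Ifnk passed the filter, at 11.1 to 43.4 scaled TPM, and it lies within another gene on the other strand, so that its reads may not be its own. Ifnb1 and all other IFN-α family genes listed were at 0 in all libraries, except Ifna16 in WT MI replicate 3 (0.0645) and Ifnz in WT sham replicate 3 (0.224). The receptor chains Ifnar1 and Ifnar2 had log2 fold changes of -0.25 ± 0.15 (adjusted p = 0.41) and -0.02 ± 0.12 (adjusted p = 0.95), the latter turning to 0.22 with unscaled TPM.

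Socs1, the feedback inhibitor of both receptors, measured 30.5, 47.1, 60.6 and 47.2 scaled TPM in Foxp3DTR MI, 5.37, 6.88 and 5.48 in WT MI and 6.53, 16.5 and 25.3 in WT sham. All Foxp3DTR MI libraries were above all WT libraries, and it rose by a log2 fold change of 2.74 ± 0.37 (adjusted p = 0.015). Tmem173, the gene of the adaptor STING, measured 187, 191, 228 and 238 in Foxp3DTR MI, 132, 144 and 146 in WT MI and 156, 137 and 155 in WT sham, a smaller rise of 0.57 ± 0.11 (adjusted p = 0.047). Without any 1 of the MI libraries the adjusted p of Tmem173 was 0.076 to 0.12, and Socs1 failed without WT MI replicate 2 or 3 or Foxp3DTR MI replicate 2 or 3 (0.050 to 0.067). Tmem173 failed also without WT sham replicate 1 (0.054).

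On the IFN-γ side, Ifngr1 measured 573, 491, 578 and 625 scaled TPM in Foxp3DTR MI, 840.2, 712 and 744 in WT MI and 893, 676 and 576 in WT sham. It was below WT MI without overlap, and did not pass (-0.43 ± 0.16, adjusted p = 0.20). Jak2, named after its values were seen, had 139, 142, 138 and 129 in Foxp3DTR MI, 83.0, 82.5 and 81.8 in WT MI and 82.1, 85.4 and 95.02 in WT sham, a rise of 0.73 ± 0.08 (adjusted p = 0.015).

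The comparison of WT MI with WT sham asks what infarction itself changed. No member passed the test (limma), in a comparison where 0% of the 12938 genes did. At an unadjusted p under 0.05 there were 2 of 32, Siglec1 and Rtp4, both higher, against 4.64% of all genes (2.20% higher, 2.44% lower), and no member separated the groups without overlap, against 6.91% of all genes (3.18% higher, 3.73% lower). The median log2 fold change was 0.19, with 26 positive and 6 negative, beside 0.00 for all genes. With unscaled TPM, which moved the median of all genes to -0.17, the members' median was 0.01. Siglec1, with the values given above, stood at 1.13 ± 0.39 (adjusted p = 0.96), the groups overlapping through WT sham replicate 1 and WT MI replicate 2. Rtp4, a receptor transporter and another gene chosen after its values were seen, measured 196, 234 and 252 in WT MI and 216, 130.0 and 154 in WT sham (0.47 ± 0.19, adjusted p = 0.96). Ifit2, Ifit3 and Isg15 had log2 fold changes of 0.55 ± 0.40, 0.68 ± 0.43 and 0.57 ± 0.35, none past the threshold.

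WT MI replicate 2 stood apart from the rest of its group. It was the lowest of its group in 29 of the 32 members, against 35.3% of all genes tested. This was not particular to the members, since it was also the lowest in all GBP and IRG genes but Gbp2b and Irgm2. Gbp2 was 55.8 scaled TPM there, against 149 and 79.5 in WT MI replicates 3 and 4. On the log2 scale the median member of WT MI replicate 2 was 0.49 below the members' own means over 10 libraries. WT MI replicates 3 and 4 were 0.25 and 0.28 above. The same measure over all genes was 0.00 to 0.01 in size in these 3 libraries. The WT sham libraries stood at -0.05, -0.15 and -0.12, and the Foxp3DTR MI libraries at -0.03, 0.04, 0.19 and 0.12. WT MI replicate 2 thus lay below every WT sham library and the other WT MI libraries above every Foxp3DTR MI library by this measure. Its depth of 6.24 M reads was between those of the other WT MI libraries (8.40 and 5.24), and its T cell, neutrophil and plasmacytoid dendritic cell marker sums were 7.19, 479 and 43.9, against 7.89, 167 and 52.0 in replicate 3 and 8.35, 410.3 and 53.5 in replicate 4.

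Without WT MI replicate 2, 18 of 32 members were higher in WT MI than in WT sham at an unadjusted p under 0.05, against 4.94% of all genes, the median log2 fold change was 0.44 with 28 positive, and still none passed the adjusted test (lowest adjusted p = 0.80). This library was looked at because its members were low, and the other removals gave less. Without WT MI replicate 3, no member was higher and 1 was lower at an unadjusted p under 0.05, with 20 positive and a median of 0.053, and without WT MI replicate 4, 1 was higher, with 19 positive and a median of 0.07. Against Foxp3DTR MI the median became -0.19, with 15 members at an unadjusted p under 0.05, 13 of them lower in Foxp3DTR MI, against 18.8% of all genes. No gene at all was called there with 2 WT MI libraries. Without WT MI replicate 3 or 4 instead, the median against Foxp3DTR MI was 0.15 and 0.09, so that its sign depended on which library was left out. Without replicate 3, 8 members were higher and 2 lower in Foxp3DTR MI at an unadjusted p under 0.05 (limma), against 14.6% of all genes. Without replicate 4, 6 were higher and 2 lower, against 14.2%. In each of these fits 21 members were positive. WT sham replicate 2, the least deep library, was the lowest of its group in 17 members and Foxp3DTR MI replicate 3 the highest in 18, against 39.7% and 25.7% of all genes.

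**Figure D4:**
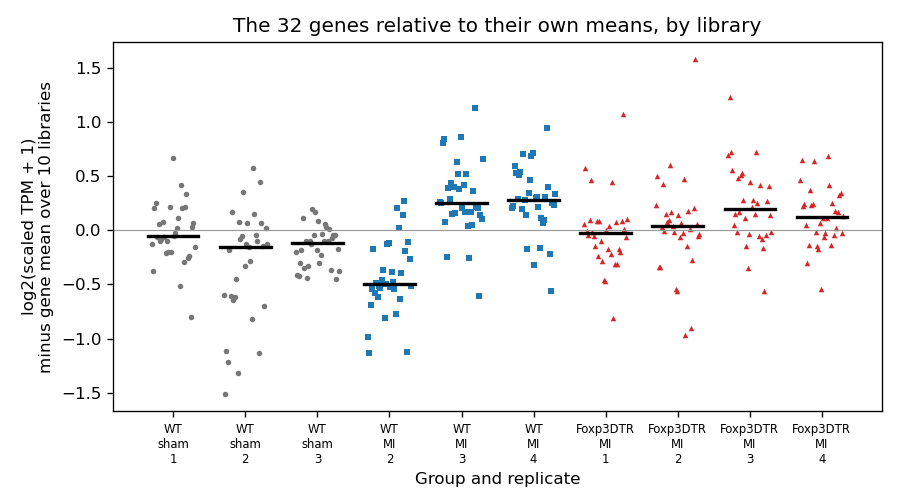
Deviation of each of the 32 genes from its own mean over 10 libraries (y axis, log2 of scaled TPM + 1), for each library along the x axis, with 1 point per gene and a bar at the median. The bar of WT MI replicate 2 is at -0.49 and those of WT MI replicates 3 and 4 at 0.25 and 0.28, with all other bars between -0.15 and 0.19.

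Foxp3DTR MI against WT sham mixes genotype, Treg depletion and surgery, and shares its libraries with the other comparisons. None of the 32 passed the adjusted test (limma), against 0.541% of all genes. At an unadjusted p under 0.05 there were 8, 7 of them higher and Irf9 lower, against 18.6% of all genes (10.2% higher, 8.41% lower). The median log2 fold change was 0.20, with 25 positive and 7 negative, beside -0.01 for all genes. Groups did not overlap for 10 members, 9 higher and 1 lower, against 18.2% of all genes (9.80% and 8.44%). The 9 were Ifit1, Ifit2, Oas1a, Oas3, Oasl2, Zbp1, Stat2, Ifi44 and Phf11d. Zbp1 came closest to the threshold, with a log2 fold change of 1.06 ± 0.21 (adjusted p = 0.064, range over the alternatives 0.015 to 0.24), and it passed only without WT sham replicate 3, where its log2 fold change was 1.25. Ifit2 stood at 1.51 ± 0.38 (adjusted p = 0.10) and Ifi44 at 1.15 ± 0.33 (adjusted p = 0.13).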

How the data were processed

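Reads of 50 bases, single-end, were processed by the submitters with CASAVA 1.4, cutadapt 1.1, STAR 2.5 and StringTie 1.3.0 against mm10, per the labels. The authors deposited 1 StringTie table per library with coverage, FPKM and TPM per gene. TPM was summed by gene symbol. Coverage and FPKM as deposited served to infer depth (reads in M). TPM keeps no counting error, so the precision comes from the replicates alone and a 0 is only a listed 0. Without counts, the study's count model was replaced by limma 3.58.1 (R 4.3.3) on log2(scaled TPM + 1), with an intensity trend, all 10 libraries sharing the spread, and Benjamini-Hochberg adjustment over 12938 genes. Scaled TPM is TPM divided by a library factor of 0.856 to 1.14 (median of ratios). Fold changes are on this scale, which understates those of low genes. A value after ± is the SE for a fold change and the SD for a mean.

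The members, the marker, pathway and GBP/IRG lists, and the genes given library by library were chosen with earlier results of these data known. Library values were given for the member of lowest p (Foxp3DTR MI against WT MI) and that of highest mean in each role, for Irf7, Isg15, Stat2 and Irf9, for pathway genes past the threshold, for Ifngr1 and for the gene of lowest p in each GBP/IRG family. The next 3 genes of lowest p in each of these families are given by fold change. Of the pathway list, 1 gene is not reported here, and counts over that list are left out. Rtp4, Jak2, Isg20, the Ifit ratios and other genes beyond this rule, and the marker sums without 1 gene, were chosen after values were seen. The fit was tested on simulated data. Promoters and the GRCm38.p6 sequence came from RefSeq. The sources used here do not say whether reads were counted by strand. Replicate numbers were not treated as pairs. The alternatives were other scalings, FPKM, pseudocounts, filters, variance models, a replicate block and leaving out each library.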

Additional observations from a re-analysis of the deposited data

Results flagged for a closer look

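In Foxp3DTR MI, the only group with 4 libraries, 2 of 32 genes had 1 library far from the others, measured as its gap to the nearest library over the whole range of the group, and past Dixon's 95% critical value. Oas2 in replicate 4 (217 scaled TPM, the others 235 to 237) had a gap of 0.925, within a narrow range. Isg15 in replicate 1 (48.7 scaled TPM, the others 83.2 to 90.2) had a gap of 0.868. Chance passes this limit in about 1 in 20 groups.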

How the results depend on the processing

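Over 23 alternatives, 10 of which left out 1 library each, the number of members called higher in Foxp3DTR MI than in WT MI was 0 in most. It was 2 with unscaled TPM, with only the 2 groups in the fit and with array weights (Zbp1 and Ifi44), 1 with quantile normalization (Ifi44) and 1 with the replicate block (Zbp1, log2 fold change 0.92), and leaving out 1 library gave 0 to 2, the 2 being Zbp1 and Ifi44 without WT sham replicate 2 or 3. Of all genes, 1.12% were called in either direction in the main fit. In these settings, in the same order, the share was 4.07%, 4.47%, 3.08%, 1.36% and 0.626%. Without WT sham replicate 2 or 3 it was 3.36% and 3.30%. Against WT sham the number of members called was 0 to 1 (Zbp1, without WT sham replicate 3, where 4.98% of all genes were called).

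Unscaled TPM, which moved the median of all genes by 0.22, took the members' median against WT MI from -0.04 to 0.20 and turned Ifit3 (0.16), Oas2 (0.055), Mx1 (0.17), Bst2 (0.044) and Ifnar2 (0.22) positive. It also took the calls over all genes from 89 higher and 56 lower (61.4% higher) to 488 and 39 (92.6%), and the replicate block took them to 68 and 13 (84.0%). With unscaled TPM, 10 members were higher and 0 lower at an unadjusted p under 0.05 (limma), against 26.9% of all genes, and 25 were positive. Over all settings the calls ran from 0 without WT MI replicate 2 to 337 higher and 241 lower with only the 2 groups in the fit. Leaving out 1 library moved the median against WT MI over -0.19 to 0.15, that of WT MI against WT sham over 0.053 to 0.44, Ifit3 over -0.55 to 0.20, Oas2 over -0.50 to 0.0055, Mx1 over -0.51 to 0.22 and Ifnar2 over -0.11 to 0.066.

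Tmem173 missed the threshold with no variance trend (adjusted p = 0.077), with the replicate block (0.067) and with no filter (0.076). Libraries with the same number did not deviate together (r of -0.19 to 0.19 over 8 pairs, -0.20 to 0.18 over 25 other pairs). Among the members the block changed the call of Zbp1 against WT MI.

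The study's count model and the counting error of low genes such as Ifi44 could not be had from TPM, and with 3 or 4 libraries a group the median SE of a member's log2 fold change was 0.22.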
